A study of Mus musculus with 38 samples.

Results

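Immediate early genes are transcribed within minutes of a stimulus, before any new protein is needed. The 10 genes described here are Fos, Fosb, Jun, Junb and Jund of the AP-1 family, Egr1, Egr2 and Egr3 of the early growth response family, Zfp36 and Batf3. They were chosen by symbol, written in the files in capitals as FOS, FOSB, JUN, JUNB, JUND, EGR1, EGR2, EGR3, ZFP36 and BATF3, and 10 of 10 occurred once in each kind of RNA file, among 11441 gene names in the GC-normalized files, 20650 in the files of an inhibitor experiment and 20605 in the plasma cell files. The series holds 38 mouse samples, of which 14 RNA sequencing libraries in 7 groups of 2 were analysed and 24 chromatin samples are not analysed here. B cells of C57BL/6 mice were cultured for 4 days with lipopolysaccharide (LPS), a bacterial product that activates B cells, and sorted by CD138 and by a GFP reporter inserted in Prdm1, the gene that encodes Blimp1.

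Blimp1 is the transcriptional repressor that drives B cells to become antibody-secreting cells. Blimp1-deficient pre-plasmablasts were Blimp1(GFP/fl) Cd23(Cre/+) and were sorted as CD138– GFP+ cells with high CD22. Activated B cells (CD138– GFP–), control pre-plasmablasts (CD138– GFP+) and the CD138+ GFP+ plasmablasts were Blimp1(GFP/+) Cd23(Cre/+), so these controls also carried the Cre transgene, which acts in mature B cells, and 1 reporter allele. In the inhibitor experiment, Blimp1(GFP/+) pre-plasmablasts were grown for 4 days with LPS and either GSK343, which blocks the histone methyltransferase EZH2, or its solvent DMSO. Plasma cells were sorted directly from Blimp1(GFP/+) mice as CD28+ CD138+ GFP+ cells lacking lineage markers. Genotype and CD22 gate differed together between Blimp1-deficient and control pre-plasmablasts and cannot be told apart. The labels do not state whether both libraries of a group are different mice or cultures, so p-values rest on a spread between libraries that may be technical. Each test pools this spread over all groups in its fit and moderates it with that of other genes. Mouse age is not given in the sources used here.

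Fos family proteins cannot pair with themselves and bind DNA as pairs with Jun family proteins, and JunB and JunD are often weaker activators than c-Jun. Batf3 is a small relative that pairs with Jun proteins, lacks an activation domain and is best known as a factor of dendritic cells that cross-present antigen. Egr proteins are zinc finger factors that bind GC-rich sites, are induced by antigen receptor and Toll-like receptor signals through the MAP kinase cascade, and are held back by Nab corepressors. Zfp36 (tristetraprolin) binds AU-rich elements in messenger RNAs such as that of Tnf and recruits deadenylases that shorten their life. Many of these genes carry serum response elements, whose core is the CArG box, bound by serum response factor together with ternary complex factors such as Elk1.

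Promoter sequences are shown for Zfp36, Egr2 and Jun, which were called in most comparisons and hold a motif searched for, and for the Fos pair. They come from RefSeq on assembly GRCm38.p6, which differs from the build of the RNA files. Windows of 8 of the 10 symbols were used, with 5 annotated starts for Egr2, and Egr1 and Egr3 were not searched. Only the 250 bases before each start were searched, on both strands. For Zfp36 the whole stretch is printed, with the CArG box and the GC-rich Egr-type motif GCGGGGGCG in capitals. For Jun the whole stretch is printed with the AP-1-like motif TGACATCA in capitals. For Egr2 and Fosb 30 bases around the CArG boxes and the Egr-type motif are given, and for Fos 30 bases around its TATAAA box.
Zfp36, chr7:28379229-28379478, minus strand: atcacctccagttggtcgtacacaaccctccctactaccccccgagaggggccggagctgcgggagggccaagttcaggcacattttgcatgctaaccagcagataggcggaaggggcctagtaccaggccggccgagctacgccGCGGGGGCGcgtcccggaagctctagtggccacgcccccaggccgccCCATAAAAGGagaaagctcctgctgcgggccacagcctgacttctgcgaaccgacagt
Jun, chr4:95052223-95052472, minus strand: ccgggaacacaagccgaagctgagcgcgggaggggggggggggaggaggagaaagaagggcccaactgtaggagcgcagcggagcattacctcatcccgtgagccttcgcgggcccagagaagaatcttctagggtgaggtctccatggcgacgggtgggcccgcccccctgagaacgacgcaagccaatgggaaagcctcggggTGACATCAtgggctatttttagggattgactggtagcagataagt
Egr2 upstream start, chr10:67537484-67537513, plus strand: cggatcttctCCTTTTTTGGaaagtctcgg
Egr2 downstream starts, chr10:67537787-67537816, plus strand: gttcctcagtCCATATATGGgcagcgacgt
Fosb, chr7:19310077-19310106, minus strand: gtgacgcaagcGCGGGGGCGggtcccggag
Fos, chr12:85473845-85473874, plus strand: tcacagcgcttcTATAAAggcgccagctga

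A CArG box lay 58 to 49 bases before the Zfp36 start and was found before 4 of the 5 Egr2 starts, where 3 of these starts share 1 box. It occurred in 1.47% of all 32851 promoter windows searched in the same way. The motif GCGGGGGCG lay 105 to 97 bases before the Zfp36 start and 50 to 42 bases before the Fosb start, against 2.57% of all windows. Its variant GCGTGGGCG, held by 0.536% of all windows, was in no window of the 8 genes. TGACATCA stood 45 to 38 bases before the Jun start and occurred in 2.93% of windows. The shorter core of the cyclic AMP response element, TGACG, occurred in 17.8% of windows, and among the 8 genes it was found in Fos, Fosb, Junb and Egr2. Fos also had TATAAA 33 to 28 bases before its start, as 12.4% of windows did anywhere. The letters TGACTCA (4.46% of windows), TGACGTCA (1.55%) and the Blimp1-type motif AGNGAAAG (7.3%) were in no window of the 8 genes. A match is a description of the letters and not evidence of binding.

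**Figure D1:**
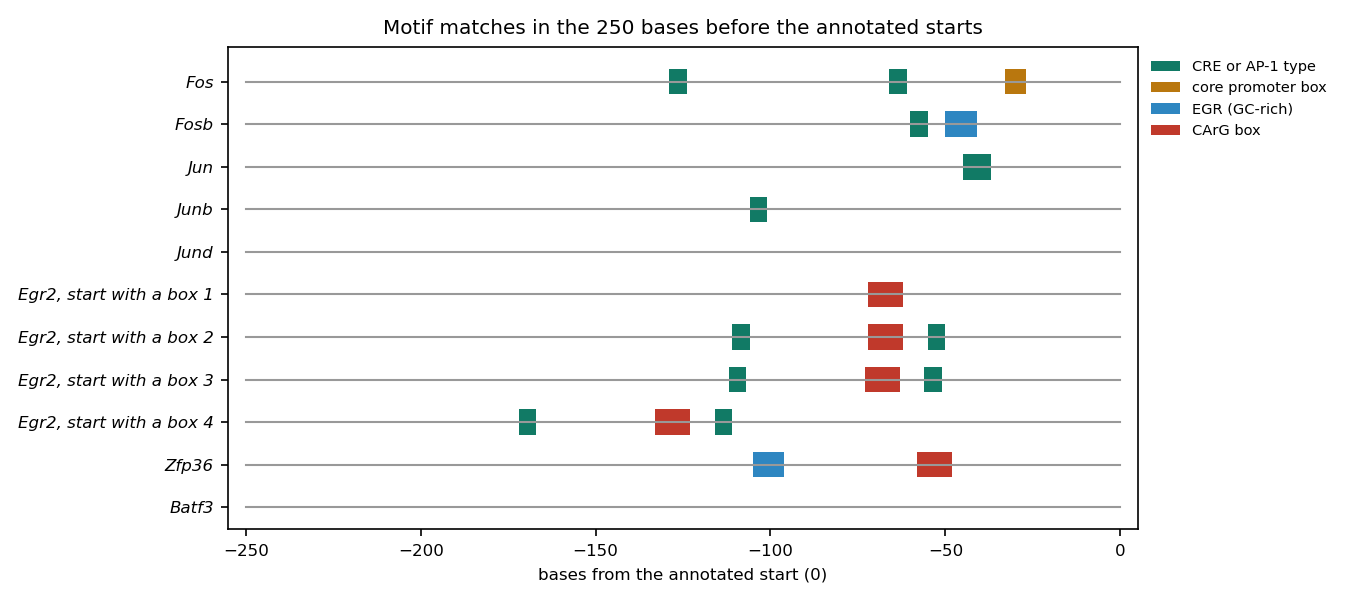
Positions of motif matches (coloured blocks) along the 250 bases before the annotated starts (horizontal axis, bases from the start), with a row for each gene and for each of the 4 Egr2 starts that hold a CArG box. Among the 8 genes searched, Zfp36 and Egr2 have a CArG box in this stretch, and Zfp36 and Fosb an Egr-type motif. Jund and Batf3 have none of the motifs drawn. Egr1 and Egr3 were not searched and have no row, and sites farther upstream of any gene were not searched.

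Values are RPKM (read density per kilobase of transcript after scaling to library size), as the authors deposited them, and tests were made on log2(RPKM + 1), so fold changes of low genes are understated. Adjusted p-values are limma's, with Benjamini-Hochberg adjustment over all genes tested, and a gene was called below 0.05. Between 9744 and 10077 genes were at 1 RPKM or above in each GC-normalized library, where the reads behind a value are unknown, 9188 to 9519 in each inhibitor library, and 9869 and 9885 in the plasma cell libraries. Prdm1 averaged 184.8 RPKM in Blimp1-deficient pre-plasmablasts and 377.7 RPKM in control pre-plasmablasts, a value that includes the reporter allele and so checks the genotype only in part. All 6 plasma cell markers tested (Prdm1, Sdc1, Xbp1, Irf4, Igj and Tnfrsf17) were higher in control pre-plasmablasts than in activated B cells. Across all genes the median fold change was 0.12 on the log2 scale for Blimp1-deficient against control pre-plasmablasts, -0.12 for control pre-plasmablasts and -0.18 for plasmablasts against activated B cells, and -0.18 for plasmablasts against Blimp1-deficient pre-plasmablasts. No called member changed sign when the libraries were rescaled.

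The 2 libraries of a group differed more in several immediate early genes than in most other genes. Fos was higher in library 1 than in library 2 in all 4 GC-normalized groups, by 0.92 to 2.34 on the log2 scale, a difference above that of at least 99.7% of genes in each group. Fosb did the same by 0.62 to 1.73 and Egr1 by 0.55 to 1.98. Junb, Egr2, Egr3 and Batf3 were also higher in library 1 in all 4 groups, so that 7 of 10 members shared this direction, while Jund was lower in library 1 in every group, by 0.25 to 0.46. Over all genes the 5th and 95th percentiles of this difference lay between -0.60 and 0.46. The largest gaps were in activated B cells, where Fos stood at 17.9 and 2.73 RPKM and Egr1 at 198.8 and 49.7 RPKM. Library numbers in the titles place libraries 1 and libraries 2 in separate consecutive runs, so each member's call that changes when the run enters the model as a block is given both ways.

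**Figure D2:**
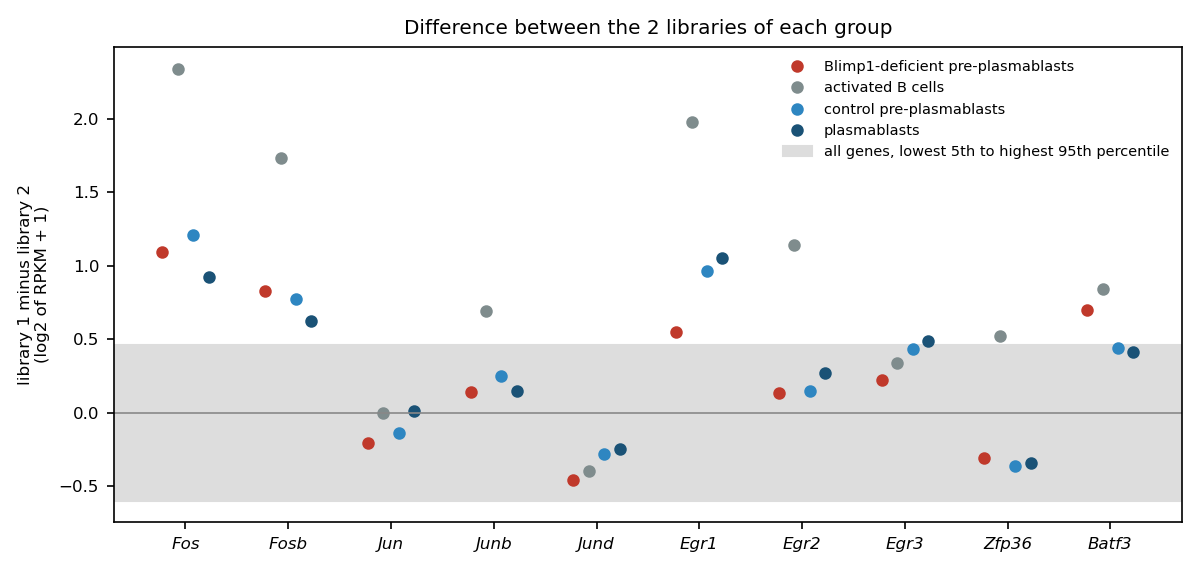
Difference between library 1 and library 2 on the log2(RPKM + 1) scale (vertical axis) for each gene (horizontal axis) in the 4 GC-normalized groups (colours), with the range of most genes as a grey band from the lowest 5th to the highest 95th percentile. Fos, Fosb and Egr1 lie above the band in each group, up to 2.34 for Fos in activated B cells, and Jund lies below 0 in each.

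Jund, a member that many tissues transcribe steadily, had the highest mean of the 10 genes in each of the 7 groups. It held 44.7% of their summed RPKM in Blimp1-deficient pre-plasmablasts, 37.7% in activated B cells, 35.7% among control pre-plasmablasts and 33.9% among plasmablasts. Junb ranked next in activated B cells (33.9%), whereas Zfp36 ranked next in control pre-plasmablasts (24.7%) and plasmablasts (28.2%). Fosb was the lowest member in all 4 of these groups. RPKM is scaled to transcript length, so these ranks compare genes within a library type.

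**Figure D3:**
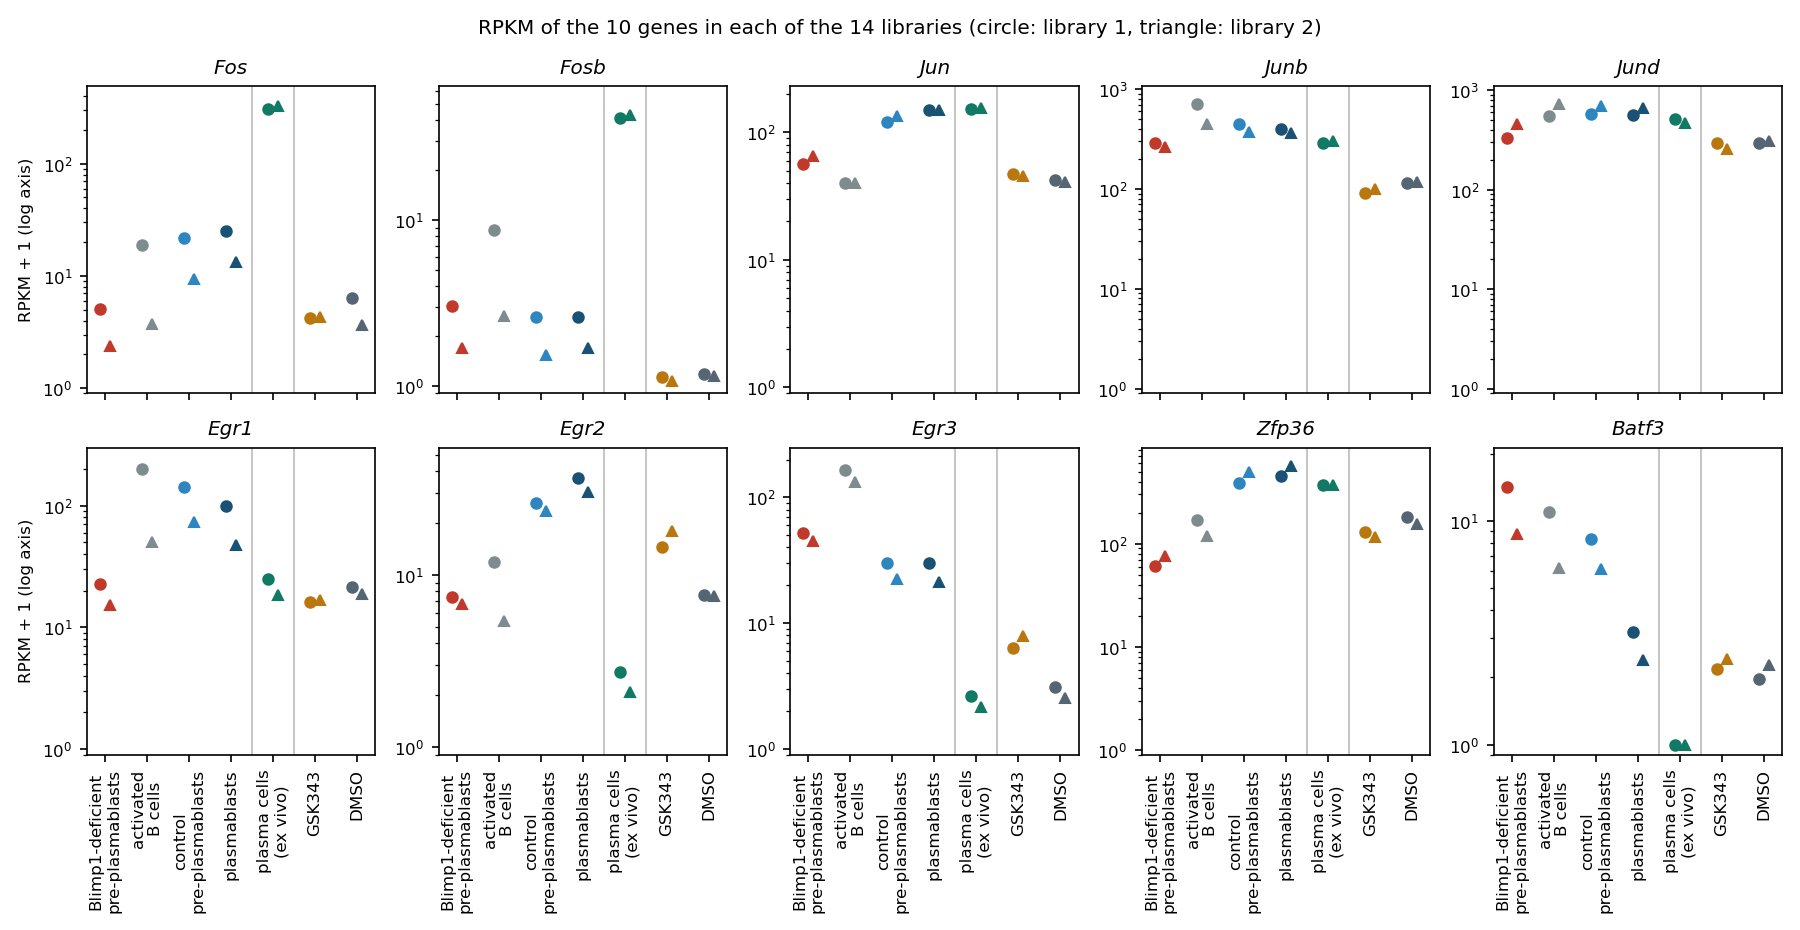
RPKM + 1 on a log axis (vertical) of each of the 10 genes (panels) in each library of the 7 groups (horizontal axis), circles for library 1 and triangles for library 2, with thin lines between the separately normalized file kinds. Zfp36, Jun and Egr2 stand higher in control pre-plasmablasts and plasmablasts than in Blimp1-deficient pre-plasmablasts, Egr3 is highest in activated B cells, and Fos and Fosb reach 308 to 328 and 40.2 to 42.1 RPKM in ex vivo plasma cells.

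Control pre-plasmablasts were set against activated B cells to see what differed once the Blimp1 reporter was on. Jun, Zfp36 and Egr2 were higher and Egr3 was lower, while Jund was near 0 and Egr1 was not resolved. Thus 4 of 10 members were called, 3 higher and 1 lower, against 48.2% of all 10473 genes tested (20.2% higher and 28% lower), a share near the background. Because these are bulk libraries, fewer cells of a type and less RNA per cell cannot be told apart. With the library run as a block 7 members were called, against 69.6% of all genes. The 3 myeloid markers in these files (Tyrobp, Fcer1g and Itgam) summed to 12.3 and 17.2 RPKM in control pre-plasmablasts and 31.3 and 24.8 RPKM in activated B cells, although Fcer1g alone rose, at 10.6 RPKM in control pre-plasmablasts and 2.77 RPKM in activated B cells (limma adjusted p = 0.00245). The 3 erythroid and megakaryocyte markers present summed to 3.45 and 4.21 RPKM in control pre-plasmablasts and 18.6 and 13.1 RPKM in activated B cells, and Hbb-b1 fell by 2.81 (SE 0.28, limma adjusted p = 0.000355). The 1 T cell marker tested, Lck, was also lower (-1.37), as were 4 of 6 B cell markers. Whether such transcripts came from other cells or from the B cells themselves, and their part in the members' differences, was not tested.

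Jun, the founding AP-1 protein, stood at 119.7 and 132.0 RPKM in control pre-plasmablasts, against 38.7 and 38.6 RPKM in activated B cells. Both control libraries lay far above both activated libraries, and the fold change was 1.67 ± 0.10 on the log2 scale (SE, n = 2 each, limma adjusted p = 4.86e-05). Junb had 443.6 and 373.5 RPKM in control pre-plasmablasts, against 715 and 444 RPKM in activated B cells. Its groups did not overlap, but by less than 1 RPKM, and the difference of -0.47 ± 0.22 passed with the run as a block (limma adjusted p = 0.13 without it and 0.00951 with it). Without activated B cell library 2, Junb also passed, at -0.81 (limma adjusted p = 0.0123). Jund had 579 and 702 RPKM in control pre-plasmablasts, against 556 and 735 RPKM in activated B cells, and these ranges overlapped. The 95% interval of its log2 difference ran from -0.52 to 0.51 without the block. With the block its SE was 0.07 (limma adjusted p = 0.959).

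Fos, the classic immediate early partner of Jun, had 20.7 and 8.38 RPKM in control pre-plasmablasts, against 17.9 and 2.73 RPKM in activated B cells. The groups overlapped and the fold change of 0.76 ± 0.83 passed only with the run as a block (limma adjusted p = 0.49 without it and 0.0463 with it). Without activated B cell library 2 it was -0.41. Fosb had 1.59 and 0.522 RPKM in control pre-plasmablasts, against 7.66 and 1.62 RPKM in activated B cells. The groups did not overlap, but activated B cell library 2 was almost level with control library 1. Its difference of -1.26 ± 0.60 likewise passed with the block (limma adjusted p = 0.131 and 0.00183) and, at -2.12, without activated B cell library 2 (limma adjusted p = 0.0203). Within runs Fosb was lower in control pre-plasmablasts by 1.74 in the first and 0.78 in the second.

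The Egr genes went separate ways. Egr2, a factor that restrains lymphocyte activation, had 25.2 and 22.6 RPKM in control pre-plasmablasts, against 10.8 and 4.36 RPKM in activated B cells, and rose by 1.64 ± 0.34 (limma adjusted p = 0.0075, n = 2 each). Its fold change spanned 1.07 to 2.21 when single libraries were left out, 1.07 being the value without activated B cell library 2, and it stayed called each time. Egr3, which shares many target sites with Egr2, had 29.0 and 21.3 RPKM in control pre-plasmablasts, against 165 and 131 RPKM in activated B cells. Its groups were far apart and it fell by 2.51 on the log2 scale (SE 0.22, limma adjusted p = 0.000203). Egr1, the most widely used marker of acute signalling, had 141.4 and 72.1 RPKM in control pre-plasmablasts, against 198.8 and 49.7 RPKM in activated B cells. The control libraries lay inside the activated range, and its 95% interval ran from -1.65 to 1.69 in the fit without the block. With the run as a block its difference was 0.02 ± 0.27 (limma adjusted p = 0.95).

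Zfp36 had 388 and 497 RPKM in control pre-plasmablasts, against 170.2 and 118 RPKM in activated B cells, a rise of 1.62 ± 0.23 (limma adjusted p = 0.00146) with no overlap. Batf3 had 7.30 and 5.10 RPKM in control pre-plasmablasts and 10.03 and 5.17 RPKM in activated B cells. Those ranges overlapped, with a log2 difference of -0.21 ± 0.36 and limma adjusted p = 0.659.

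Plasmablasts were next set against control pre-plasmablasts, a step that adds CD138 at the surface. With limma 0 of 10 members were called, against 2.34% of all genes, and 1 member (Batf3) had an unadjusted p below 0.05. With the run as a block 2 members were called, against 20.3% of all genes. Batf3 had 2.19 and 1.39 RPKM in plasmablasts, against 7.30 and 5.10 RPKM in control pre-plasmablasts. The groups did not overlap, the difference was -1.38 in the first run and -1.35 in the second, and the limma adjusted p was 0.126 without the block and 0.000438 with it. Jun had 148.4 and 147.3 RPKM in plasmablasts, against 119.7 and 132.0 RPKM in control pre-plasmablasts, a difference of 0.23 ± 0.10 (limma adjusted p = 0.323 without the block and 0.0458 with it). The other 8 members had differences between -0.57 (Egr1) and 0.43 (Egr2), and Zfp36 stood at 449 and 568 RPKM in plasmablasts.

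Plasmablasts and activated B cells differed in 5 members, against 55.1% of all genes, and in 8 with the block, against 75.4%. Jun (1.91 ± 0.10, limma adjusted p = 2.02e-05), Egr2 (2.07 ± 0.34, limma adjusted p = 0.00225) and Zfp36 (1.82 ± 0.23, limma adjusted p = 0.000679) were higher, 3 members against 21.3% of all genes. Egr3 (-2.56 ± 0.22, limma adjusted p = 0.000143) and Batf3 (-1.58 ± 0.36, limma adjusted p = 0.00915) were lower, 2 members against 33.9%. Batf3 lost its call without plasmablast library 2, at -1.37 and limma adjusted p = 0.052. Fos (1.13), Fosb (-1.18) and Junb (-0.56) passed with the block, at limma adjusted p = 0.00795, 0.00232 and 0.00356, against 0.288, 0.141 and 0.0726 without it. Without activated B cell library 1 Fos passed at 2.30 (limma adjusted p = 0.041), without activated B cell library 2 it was at -0.04, and without activated B cell library 2 Fosb passed at -2.04 and Junb at -0.90 (limma adjusted p = 0.0188 and 0.00682). The myeloid markers summed to 4.48 and 6.69 RPKM in plasmablasts and the erythroid and megakaryocyte markers to 2.15 and 2.36 RPKM, both below the activated B cell sums, with Hbb-b1 lower by 3.23 (SE 0.28, limma adjusted p = 0.000144), and their part in the members' differences was not tested.

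**Figure D4:**
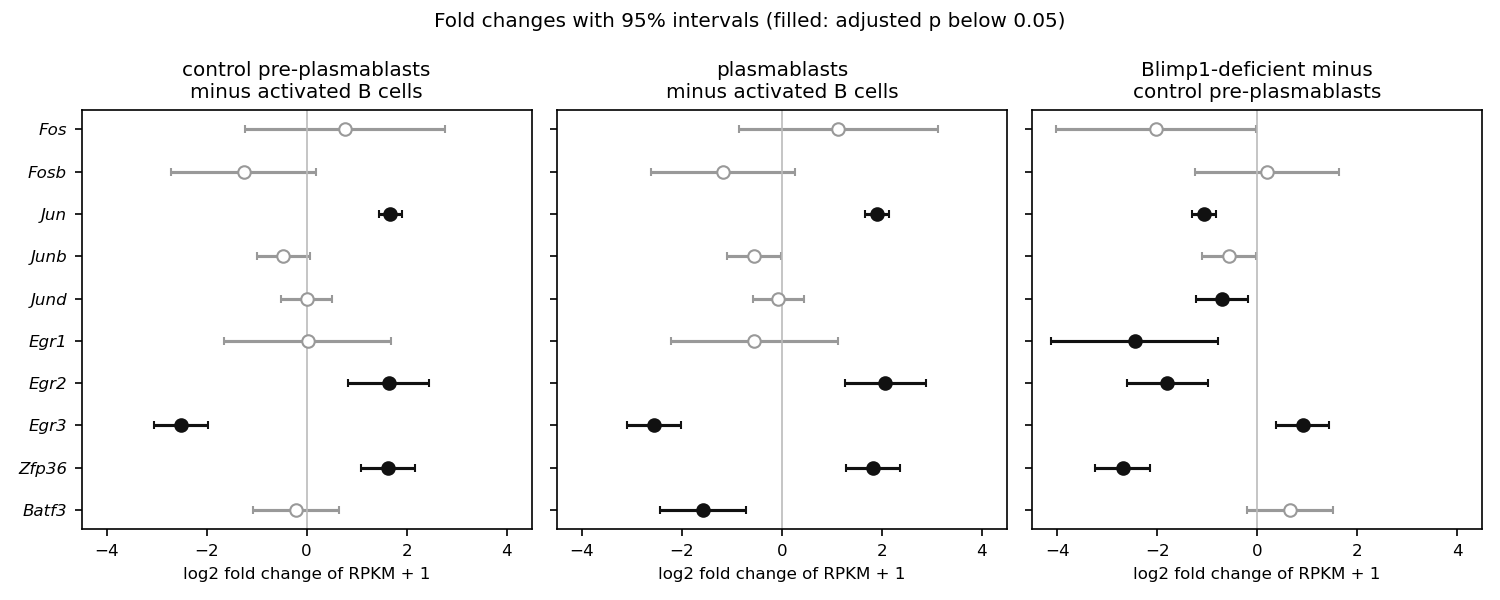
Log2 fold changes of RPKM + 1 (horizontal axis, points) with 95% intervals (bars) for the 10 genes in 3 comparisons (panels), from the fit without the run as a block. Points are filled where the limma adjusted p is below 0.05. Jun, Egr2 and Zfp36 lie right of 0 in the panels against activated B cells, up to 2.07 for Egr2, and left of 0 in Blimp1-deficient against control pre-plasmablasts, down to -2.69 for Zfp36, while Egr3 lies on the opposite side each time.

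Blimp1-deficient pre-plasmablasts differed from control pre-plasmablasts in 6 of 10 members, 5 lower and 1 higher, against 40.4% of all genes (16.1% lower and 24.4% higher). Zfp36, Jun, Egr2, Egr1 and Jund were lower and Egr3 was higher. With the block 9 members were called, against 65.2% of all genes. Without Blimp1-deficient library 1 fewer members and fewer of all genes were called. The 10 genes summed to 834 and 933 RPKM in Blimp1-deficient pre-plasmablasts, against 1756 and 1835 RPKM in control pre-plasmablasts. The median over the 10 members was -0.88 on the log2 scale, against 0.12 over all genes tested. With the block Jund, Egr1 and Egr3 kept their calls (limma adjusted p = 4.16e-05, 0.000108 and 1.88e-05). Within runs Jund differed by -0.80 and -0.61, Egr1 by -2.66 and -2.25 and Egr3 by 0.80 and 1.01. These comparisons share the control pre-plasmablast libraries with those above.

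Zfp36 had the largest difference of the members. It stood at 60.1 and 74.8 RPKM in Blimp1-deficient pre-plasmablasts, against 388 and 497 RPKM in control pre-plasmablasts, a fall of 2.69 on the log2 scale (SE 0.23, limma adjusted p = 0.000268), with -2.67 and -2.72 within the 2 runs. Every deficient library lay below every control library by a wide margin. Zfp36 was also below activated B cells, at 170.2 and 118 RPKM, by 1.07 (limma adjusted p = 0.022), a call lost without activated B cell library 1 (-0.81, limma adjusted p = 0.114), Blimp1-deficient library 1 (-0.91, 0.116) or Blimp1-deficient library 2 (-1.23, 0.0631). The order of the 4 means was thus Blimp1-deficient pre-plasmablasts, activated B cells, control pre-plasmablasts and plasmablasts, and only the last neighbours did not differ by the test (0.20 ± 0.23, limma adjusted p = 0.788).

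Jun stood at 55.5 and 64.4 RPKM in Blimp1-deficient pre-plasmablasts, against 119.7 and 132.0 RPKM in control pre-plasmablasts, and fell by 1.06 (SE 0.10, limma adjusted p = 0.000391). It was above activated B cells, at 38.7 and 38.6 RPKM, by 0.62 ± 0.10 (limma adjusted p = 0.00838), so its level was intermediate. That call was lost without activated B cell library 1 (limma adjusted p = 0.0585), activated B cell library 2 (0.0526) or Blimp1-deficient library 2 (0.0515). Jund had 333 and 458 RPKM in Blimp1-deficient pre-plasmablasts, against 579 and 702 RPKM in control pre-plasmablasts. The groups did not overlap and it fell by 0.71 (SE 0.21, limma adjusted p = 0.039), yet the call was lost in a fit of only the 2 groups (limma adjusted p = 0.056) and in 5 of 8 fits that left out a library: those without plasmablast library 1 (limma adjusted p = 0.0532) or 2 (0.053), control pre-plasmablast library 1 (0.0646) or 2 (0.162), or Blimp1-deficient library 1 (0.184).

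Junb had 288 and 261 RPKM in Blimp1-deficient pre-plasmablasts, against 443.6 and 373.5 RPKM in control pre-plasmablasts. The groups stood apart, and the difference of -0.57 ± 0.22 passed with the block (limma adjusted p = 0.0861 without it and 0.00422 with it). It also passed in a fit of only the 2 groups (limma adjusted p = 0.0364) and without activated B cell library 1 or 2. Fos had 4.09 and 1.39 RPKM in Blimp1-deficient pre-plasmablasts, against 20.7 and 8.38 RPKM in control pre-plasmablasts. No deficient library reached a control library, with -2.09 and -1.97 within runs, and the limma adjusted p was 0.0976 without the block and 0.000489 with it. Leaving out activated B cell library 1 or 2 also let Fos pass, as did a fit of only the 2 groups (limma adjusted p = 0.0433). Fosb had 2.03 and 0.699 RPKM in Blimp1-deficient pre-plasmablasts and 1.59 and 0.522 RPKM in control pre-plasmablasts, which overlapped.

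Among the Egr genes, Egr2 had 6.46 and 5.81 RPKM in Blimp1-deficient pre-plasmablasts, against 25.2 and 22.6 RPKM in control pre-plasmablasts. It was 3.48-fold lower (limma adjusted p = 0.00655) and was not told apart from activated B cells (-0.16, 95% interval -0.97 to 0.65). Egr1 had 21.5 and 14.4 RPKM in Blimp1-deficient pre-plasmablasts, against 141.4 and 72.1 RPKM in control pre-plasmablasts. Its fall of 2.45 (SE 0.70, limma adjusted p = 0.0308) lost the call without control pre-plasmablast library 1 (-1.97, limma adjusted p = 0.14), Blimp1-deficient library 1 (-2.73, 0.0797) or Blimp1-deficient library 2 (-2.18, 0.132). Egr3 had 51.3 and 44.0 RPKM in Blimp1-deficient pre-plasmablasts, against 29.0 and 21.3 RPKM in control pre-plasmablasts. It rose by 0.91 ± 0.22 (limma adjusted p = 0.0188), a call lost without control pre-plasmablast library 2 (0.69, limma adjusted p = 0.0906), Blimp1-deficient library 1 (0.80, 0.0979) or Blimp1-deficient library 2 (1.01, 0.051). Egr3 remained below activated B cells by 1.61 (SE 0.22, limma adjusted p = 0.0048).

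Batf3 had 13.3 and 7.78 RPKM in Blimp1-deficient pre-plasmablasts, against 7.30 and 5.10 RPKM in control pre-plasmablasts. Its difference of 0.65 ± 0.36 passed with the block (limma adjusted p = 0.193 without it and 0.00182 with it). The dendritic cell markers Xcr1, Itgax and Zbtb46 were all under 1 RPKM in each of the 8 GC-normalized libraries, as the per-library values of 0.0144 to 0.817 RPKM show. The dendritic list summed to 213 and 202 RPKM in Blimp1-deficient and 163.3 and 169 RPKM in control pre-plasmablasts over 5 of its 10 genes, most of it from Irf8, which B cells also express. Of the 2 genes of this list that were tested, Flt3 rose, at 22.8 RPKM in Blimp1-deficient and 16.7 RPKM in control pre-plasmablasts (0.43 ± 0.10, limma adjusted p = 0.0129), and both passed with the block. Their part in the Batf3 difference was not tested.

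Against activated B cells, Blimp1-deficient pre-plasmablasts differed in 4 members, 1 higher and 3 lower, against 18% of all genes (10.4% higher and 7.6% lower), and in 9 with the block, against 42.7%. The count fell without activated B cell library 1 or either Blimp1-deficient library, as did the share of all genes called. Junb was lower by 1.04 (SE 0.22, limma adjusted p = 0.0224), a call lost in a fit of only the 2 groups (limma adjusted p = 0.0635). The Junb call was also lost without activated B cell library 1 (-0.70), Blimp1-deficient library 1 (-1.11) or Blimp1-deficient library 2 (-0.97). Egr1 missed the threshold at -2.43 ± 0.70 (limma adjusted p = 0.0583) and passed with the block (0.000262) or without activated B cell library 2 (-3.42, 0.0243). Jund (-0.71), Fos (-1.27), Fosb (-1.07) and Batf3 (0.44) passed with the block, at limma adjusted p = 0.000107, 0.00966, 0.00849 and 0.0198, against 0.0684, 0.376, 0.294 and 0.485 without it. Plasmablasts differed from Blimp1-deficient pre-plasmablasts in 7 members, 5 higher and 2 lower, against 50.8% of all genes (18.7% higher and 32.1% lower), and in 9 with the block, against 72.5%. Zfp36 (2.89), Egr2 (2.23) and Jun (1.29) were higher and Batf3 (-2.02) lower in every fit that left out a library. The calls of Fos (2.40 ± 0.83, limma adjusted p = 0.0499), Jund (0.64 ± 0.21, 0.0443) and Egr3 (-0.95 ± 0.22, 0.0122) depended on single libraries. Fos also lost its call with no filter on low values, with a minimum of 5 RPKM and with no mean-variance trend (limma adjusted p = 0.0509, 0.0514 and 0.0507), and Jund in a fit of only the 2 groups (0.0507). Without plasmablast library 2 or Blimp1-deficient library 1 fewer members and fewer of all genes were called. Egr1 (1.88, limma adjusted p = 0.0612) and Junb (0.48, 0.119) passed with the block (0.000351 and 0.00821). Both also passed after median-of-ratios scaling (limma adjusted p = 0.0475 and 0.0485) and in a fit of only the 2 groups (0.0141 and 0.031). The myeloid sums of 4.48 and 6.69 RPKM in plasmablasts compare with 35.9 and 43.1 RPKM in Blimp1-deficient pre-plasmablasts. Hbb-b1 was lower in plasmablasts by 3.37 (SE 0.28, limma adjusted p = 0.000167). Which cells these transcripts came from, and their part in the members' differences, was not tested.

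Other cell type markers moved with the Blimp1-deficient comparison. The 3 myeloid markers present of 10 summed to 35.9 and 43.1 RPKM in Blimp1-deficient pre-plasmablasts and 12.3 and 17.2 RPKM in control pre-plasmablasts, and 2 of them rose. The 3 erythroid and megakaryocyte markers present of 6 summed to 14.97 and 13.5 RPKM in Blimp1-deficient pre-plasmablasts and 3.45 and 4.21 RPKM in control pre-plasmablasts, and Hbb-b1 rose by 2.94 ± 0.28 (limma adjusted p = 0.00043). Lck rose too, at 4.64 RPKM in Blimp1-deficient and 2.25 RPKM in control pre-plasmablasts (0.81 ± 0.18, limma adjusted p = 0.0127). The cells that these transcripts came from, and their part in the members' differences, were not tested. B cell markers rose in 5 of 6 cases, among them Cd22, the gated protein, at 327 RPKM in Blimp1-deficient and 33.4 RPKM in control pre-plasmablasts.

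Lists of related genes were counted against the same shares of all genes, which for Blimp1-deficient against control pre-plasmablasts were 40.4% (65.2% with the block) and for control pre-plasmablasts against activated B cells 48.2% (69.6% with the block). Of 16 tested immediate early genes outside the 10, 11 were called in Blimp1-deficient against control pre-plasmablasts, 8 lower and 3 higher (11 and 3 with the block), with a median of -0.58 on the log2 scale. Trib1, a pseudokinase, had 8.45 RPKM in Blimp1-deficient and 61.8 RPKM in control pre-plasmablasts (-2.73 ± 0.16, limma adjusted p = 7.66e-05). Rhob, a small GTPase, had 22.0 and 100.9 RPKM in the same order (-2.15 ± 0.11), and Ier2 had 35.2 and 170.1 RPKM (-2.19 ± 0.46). In control pre-plasmablasts against activated B cells 8 of these 16 genes rose and 1 fell (10 and 2 with the block), with Trib1 at 4.29 ± 0.16 and Rhob at 2.71 ± 0.11. Among serum response factor and its partners 4 of 6 rose and 1 fell (5 and 1 with the block) in Blimp1-deficient against control pre-plasmablasts, led by the coactivator Mkl1 (0.93 ± 0.09), while 1 rose and 4 fell (1 and 5 with the block) in control pre-plasmablasts against activated B cells. Of 18 MAP kinase cascade genes 5 rose and 2 fell in Blimp1-deficient against control pre-plasmablasts (9 and 4 with the block), with Mapk11 at 0.93 ± 0.13 and Mapk3, which encodes ERK1, at 0.71 ± 0.09. In control pre-plasmablasts against activated B cells 2 rose and 7 fell (4 and 10 with the block), and in both comparisons the share of this cascade called was near that of all genes. The corepressor gene Nab2 had 11.3 RPKM in control pre-plasmablasts and 37.0 RPKM in activated B cells (-1.64 ± 0.15, limma adjusted p = 0.000253).

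Batf, the close relative of Batf3 that pairs with Jun proteins and Irf4 in lymphocytes, had 221 RPKM in Blimp1-deficient and 90.2 RPKM in control pre-plasmablasts (1.29 ± 0.15, limma adjusted p = 0.000914). It fell in control pre-plasmablasts against activated B cells by 1.62 (SE 0.15, limma adjusted p = 0.000241). Of 9 tested AP-1 and Maf relatives in all, 1 rose and 2 fell in Blimp1-deficient against control pre-plasmablasts (1 and 3 with the block), and 3 rose and 1 fell in control pre-plasmablasts against activated B cells (3 and 2 with the block), shares near or below those of all genes. Atf3, a stress-induced relative, rose in the second of these by 1.20 ± 0.17.

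Messenger RNAs that Zfp36 is known to bind were listed beside Zfp36 itself, and 6 of 10 were in the GC-normalized files. In Blimp1-deficient against control pre-plasmablasts 2 of these 6 rose and 3 fell, against 24.4% and 16.1% of all genes. Tnf, the best studied target, had 5.13 and 5.06 RPKM in Blimp1-deficient pre-plasmablasts and 0.764 and 0.562 RPKM in control pre-plasmablasts (1.88 ± 0.22, limma adjusted p = 0.000898). Il10 had 19.8 and 15.4 RPKM in Blimp1-deficient pre-plasmablasts, against 96.4 and 80.9 RPKM in control pre-plasmablasts (-2.28 ± 0.36, limma adjusted p = 0.00315), Il6 rose by 0.93 ± 0.21 and Ier3 fell by 0.84 (SE 0.20). In activated B cells Tnf stood at 22.5 and 15.02 RPKM. Of 15 tested Zfp36 paralogs and decay factors, 2 rose and 1 fell (4 and 2 with the block), a share below that of all genes, the paralog Zfp36l1 by -0.54 ± 0.12 at 119 and 135 RPKM in Blimp1-deficient and 193 and 177 RPKM in control pre-plasmablasts.

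Profiles over the 4 GC-normalized group means, each gene centred on its own mean, were searched for the non-members nearest to each member. Jun had Ube2j1, which encodes an enzyme of endoplasmic reticulum-associated degradation, at a root mean square distance of 0.03 on the log2 scale, and Oxr1 at 0.04. Zfp36 had Nck2, an adaptor protein gene, at 0.09 and Tmem176a at 0.20, and Fos had Trp53i11 at 0.13 and Tmem176a at 0.15. Egr2 was nearest to Bpgm and AC164597.2, both at 0.06, and Egr3 to Blvrb at 0.05 and Irgc1 at 0.06. Batf3 was nearest to Gstt2 at 0.03 and Fam129c at 0.10, Fosb to Trim36 and Spry2 at 0.04, and Junb to Kif22 at 0.05 and Birc5 at 0.07. Egr1 had no near neighbour, the closest being Hist1h1b and 1300014I06Rik at 0.32. Jund spanned 0.71 between its group means and was not searched. With 4 points a profile, these distances are descriptions.

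GSK343 against DMSO asked what inhibition of EZH2 does in pre-plasmablasts. Egr2 and Egr3 were higher, and Zfp36 and Junb were slightly lower, so 4 of 9 members tested were called, 2 in each direction, against 18.6% of all 9479 genes (12.7% higher and 5.86% lower). Fosb, at 0.121 and 0.0733 RPKM with GSK343 and 0.183 and 0.144 RPKM with DMSO, stayed under the 1 RPKM filter. When no gene was filtered out, limma called 0 of all 20650 genes, although 3629 genes and 5 of the members had an unadjusted p below 0.05. So 0 of these 4 calls passed (limma adjusted p = 0.112 for Egr2, 0.137 for Egr3, 0.21 for Junb and 0.268 for Zfp36), with the same fold changes. Without GSK343 library 2 fewer members and fewer of all genes were called. The 10 genes summed to 595 and 558 RPKM with GSK343, against 663 and 645 RPKM with DMSO.

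Egr2 had 13.6 and 17.0 RPKM with GSK343, against 6.63 and 6.53 RPKM with DMSO, which correspond to at least 529 and 546 reads against 256 and 214. Both treated libraries stood at more than any DMSO library, and the rise was 1.10 ± 0.13 on the log2 scale (SE, n = 2 each, limma adjusted p = 0.000183). Egr3 had 5.32 and 6.91 RPKM with GSK343, against 2.11 and 1.53 RPKM with DMSO, from at least 99 and 106 reads against 39 and 24. It rose by 1.33 ± 0.16 (limma adjusted p = 0.00022), again without overlap. Egr1 had 15.1 and 15.7 RPKM with GSK343, against 20.6 and 17.7 RPKM with DMSO, a difference of -0.29 ± 0.11 that missed the threshold (limma adjusted p = 0.0849) and passed after median-of-ratios scaling (0.0432) or without DMSO library 2 (0.0263).

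Zfp36 had 127.6 and 114 RPKM with GSK343, against 181 and 153 RPKM with DMSO. It fell by 0.46 (SE 0.10, limma adjusted p = 0.00718) with no overlap, a call lost without GSK343 library 2 (-0.38, limma adjusted p = 0.101). Junb had 89.7 and 99.2 RPKM with GSK343, against 115.0 and 115.8 RPKM with DMSO, and fell by 0.29 (SE 0.08, limma adjusted p = 0.0304). That call was lost without GSK343 library 1 (-0.22, limma adjusted p = 0.242) or 2 (-0.36, 0.0716), and when the model had no mean-variance trend (0.097). Jun had 45.7 and 44.4 RPKM with GSK343, against 41.0 and 40.0 RPKM with DMSO, a difference of 0.15 with a 95% interval from -0.03 to 0.33. Jund (-0.12, interval -0.32 to 0.07) and Batf3 (0.12, interval -0.20 to 0.43) were likewise not called. Fos had 3.24 and 3.30 RPKM with GSK343 and 5.39 and 2.64 RPKM with DMSO, so the treated libraries lay inside the DMSO range, and it passed without DMSO library 2 at -0.58 (limma adjusted p = 0.0171).

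**Figure D5:**
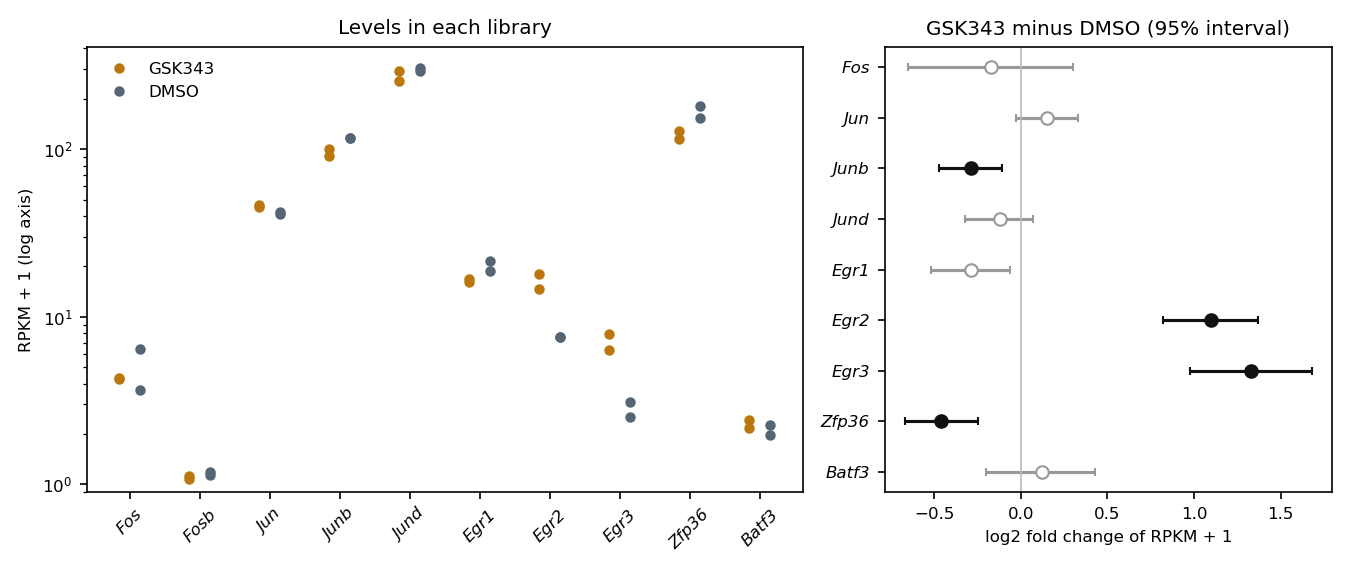
Left, RPKM + 1 on a log axis of the 10 genes in the 2 GSK343 and 2 DMSO libraries (points). Right, log2 fold change of RPKM + 1, GSK343 minus DMSO, with 95% intervals for the 9 genes tested, filled where the limma adjusted p is below 0.05, with Egr3 (1.33) and Egr2 (1.10) to the right and Zfp36 (-0.46) and Junb (-0.29) to the left.

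Lists of related genes were also counted with GSK343, against the 18.6% of all genes called. Batf had 217 RPKM with GSK343 and 113 RPKM with DMSO (0.94 ± 0.08, limma adjusted p = 1.93e-05), and was the 1 called of 8 AP-1 and Maf relatives tested, a share below that of all genes. Nab2 had 7.24 RPKM with GSK343 and 3.60 RPKM with DMSO (0.84 ± 0.12), and Zfp36l1 had 57.1 and 66.0 RPKM with GSK343 and 25.3 and 29.9 RPKM with DMSO (1.13 ± 0.11, limma adjusted p = 4.66e-05), as the 1 called of 15 Zfp36 paralogs and decay factors. Of 16 other immediate early genes 3 rose and 2 fell, Nr4a1 by 1.12 ± 0.15. Of 4 tested Zfp36 target messenger RNAs 2 rose, Ccl3 by 4.25 ± 0.16 to 53.6 RPKM with GSK343, against 1.94 RPKM with DMSO. Of 18 MAP kinase cascade genes tested 4 rose, among them Mapk3 (0.61 ± 0.09), near the share of all genes. The 10 myeloid markers summed to 19.1 and 20.5 RPKM with GSK343 and 5.84 and 6.88 RPKM with DMSO, and Fcer1g and Cd14 rose, while B cell markers gave 0 calls of 6 with limma. The T cell marker Lck had 8.91 RPKM with GSK343 and 2.33 RPKM with DMSO (1.57 ± 0.13, limma adjusted p = 1.94e-05). The erythroid and megakaryocyte markers summed to 21.8 and 32.55 RPKM with GSK343 and 11.5 and 14.7 RPKM with DMSO, and Car2 rose by 0.96 ± 0.11. Of 6 plasma cell markers Sdc1 (1.25) and Tnfrsf17 (0.89) rose and Irf4 fell by 0.51, and the dendritic marker Flt3 fell by 0.39. Their part in the members' differences was not tested.

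Plasma cells taken directly from mice stand in files normalized separately from the cultured cells, so their levels are given side by side with no test. Fos had 308 and 328 RPKM in plasma cells, with at least 11382 and 11622 reads behind them, and 24.3 and 12.4 RPKM in cultured plasmablasts. Fosb had 40.2 and 42.1 RPKM in plasma cells and 1.605 and 0.697 RPKM in plasmablasts. Fos was the third most abundant of the 10 genes in plasma cells and the eighth in plasmablasts.

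No member besides Fos and Fosb stood far above plasmablasts, whose files are GC-normalized while those of plasma cells are not. Jun had 151.0 and 152 RPKM in plasma cells and 148.4 and 147.3 RPKM in plasmablasts. Jund had 513 and 470 RPKM in plasma cells and 558 and 665 RPKM in plasmablasts. Zfp36 (366 and 369 RPKM) and Junb (285 and 299.9 RPKM) were also among the 5 most abundant. Egr1 stood at 24.0 and 17.6 RPKM in plasma cells and 97.9 and 46.7 RPKM in plasmablasts. The DMSO pre-plasmablast files are not GC-normalized either, and there Egr1 averaged 19.1 RPKM, against 106.7 RPKM in GC-normalized control pre-plasmablasts. Jun averaged 40.5 RPKM, Jund 298.5 RPKM, Junb 115.4 RPKM and Zfp36 166.9 RPKM with DMSO. Their plasma cell means were 151.8, 491.2, 292.6 and 367.3 RPKM in the same order, each above DMSO. Plasma cells and DMSO pre-plasmablasts also differ in experiment and were not tested against each other. The 10 genes together summed to 663 and 645 RPKM in DMSO and 1756 and 1835 RPKM in control pre-plasmablasts. File kind and experiment differ together between these groups and cannot be told apart.

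Egr2 was at 1.72 and 1.10 RPKM in plasma cells, from at least 90 and 55 reads, and 35.6 and 29.4 RPKM in plasmablasts. Egr3 was at 1.64 and 1.17 RPKM in plasma cells, from at least 41 and 28 reads, and 28.9 and 20.2 RPKM in plasmablasts. Batf3 was at 0 in both plasma cell libraries, where 3 reads would give 0.238 and 0.248 RPKM, the upper limit that a count of 0 allows for counting error alone. In the DMSO files, also not GC-normalized, Egr2 had 6.63 and 6.53 RPKM, Egr3 2.11 and 1.53 RPKM and Batf3 0.967 and 1.27 RPKM. The Egr3 values of plasma cells and DMSO pre-plasmablasts thus overlapped. Batf was at 17.5 and 15.4 RPKM in plasma cells, the lowest of the 7 groups.

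Other lists in the plasma cell libraries stood as follows. The 10 myeloid markers summed to 122.7 and 76.4 RPKM, and the 5 erythroid and megakaryocyte markers present to 56.2 and 31.4 RPKM, of which Hbb-b1 gave 48.8 and 27.2 RPKM. The 6 plasma cell markers included Sdc1, the gene of CD138, at 779.7 and 753 RPKM. The 6 heat shock genes present of 7 summed to 102.9 and 144.9 RPKM. Among them Hspa1a and Hspa1b, which respond to handling of cells, were at 0.406 and 1.10 RPKM and at 1.25 and 2.63 RPKM. Their part in the levels of Fos and Fosb was not tested.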

How the data were processed

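The 14 libraries were made from polyadenylated RNA with strand marking, per the labels' protocols. The submitters' processing notes name mm9, SICER, HTSeq 0.5.3, TopHat 1.4.1 and DESeq 1.8.3, without saying what each did. Which annotation and strand setting were used in counting is not given in the sources used here. The authors deposited RPKM values, GC-normalized per the file names for the 8 cultured libraries and plain for the inhibitor and plasma cell libraries. In the plasma cell files 5 read-counter summary names without values shift names against values and were dropped first. After that 93.7% of low values lay on whole-read steps of their own gene (tolerance 0.01 reads), against 18.3% as deposited. Repeated names were left out (126, 375 and 420 entries). Whole reads are the smallest set that fits, so the counts given are minima, and limits from a count of 0 cover counting error only. The second DMSO, first GSK343, second GSK343 and both plasma cell libraries had 0.848, 1.008, 0.832, 1.352 and 1.299 times the depth of the first DMSO library.

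Tests used log2(RPKM + 1) of genes reaching 1 RPKM in 2 or more libraries, with limma 3.58.1 in R 4.3.3 (moderated by eBayes with trend, two-sided), in 1 fit over the 8 GC-normalized libraries and 1 over the 4 inhibitor libraries. No count test was run on RPKM. Only the limma fit was tested on simulated data, which had independent spread between libraries and no run effect. That test therefore does not cover differences shared by a run. Titles carry library numbers in 2 consecutive runs. The differences between library 1 and library 2 correlated at 0.67 to 0.78 across genes in all 6 pairs of groups. The runs were therefore entered as a block in an alternative fit, and what a run was is not labelled. SEs, intervals and calls given without mention of the block are from the main fit, which leaves the pairing by run out. Named genes are the 10 members, up to 4 called genes of each list and comparison with the largest change, and the 2 nearest profiles of each member that spans at least 1. Marker genes named at low levels or outside that rule (Xcr1, Itgax, Zbtb46, Irf8, Hspa1a and Hspa1b among them) were chosen after their values were seen. Members and lists were chosen with earlier results of these data known. Tables and plots used Python 3.11.15, pandas 2.3.3 and matplotlib 3.10.9.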

Additional observations from a re-analysis of the deposited data

How the results depend on the processing

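No called member changed sign, but 31 of 973 alternative tests gave an uncalled member the opposite sign, 26 of them without 1 library, with limma adjusted p of 0.228 or more. After median-of-ratios scaling Jund was at 0.11 for control pre-plasmablasts against activated B cells, 0.01 for plasmablasts against control pre-plasmablasts and 0.13 for plasmablasts against activated B cells, Egr3 at 0.03 for plasmablasts against control pre-plasmablasts and Fosb at 0.00 for plasmablasts against Blimp1-deficient pre-plasmablasts. Without 1 library, the members with such a change spanned these values: for control pre-plasmablasts against activated B cells Fos -0.41 to 1.93, Jund -0.21 to 0.20, Egr1 -0.97 to 1.01 and Batf3 -0.63 to 0.21; for plasmablasts against control pre-plasmablasts Fos -0.23 to 0.97, Fosb -0.30 to 0.47, Junb -0.21 to 0.03, Jund -0.20 to 0.07 and Egr3 -0.29 to 0.21; for plasmablasts against activated B cells Fos -0.04 to 2.30, Jund -0.27 to 0.13 and Egr1 -1.54 to 0.44. Fosb spanned -0.23 to 0.61 for Blimp1-deficient against control pre-plasmablasts and -0.53 to 0.31 for plasmablasts against Blimp1-deficient pre-plasmablasts, Egr2 spanned -0.73 to 0.41 for Blimp1-deficient pre-plasmablasts against activated B cells, and Fos spanned -0.58 to 0.23 for GSK343 against DMSO. With the replicate block of library number runs, the count of members called was 7 for control pre-plasmablasts against activated B cells, 2 for plasmablasts against control pre-plasmablasts, 8 for plasmablasts against activated B cells and 9 for Blimp1-deficient pre-plasmablasts against activated B cells; for Blimp1-deficient against control pre-plasmablasts and for plasmablasts against Blimp1-deficient pre-plasmablasts it was 9 each, and the shares of all genes called stand beside these counts in the text. The block gained 18 calls and lost 0, each gained call is given above, and it changed no other call of a member. Without a filter on low values 0 members were called for GSK343 against DMSO, and the cause was not tested. Leaving out single libraries gave 4 to 6 members for control pre-plasmablasts against activated B cells, 0 to 0 for plasmablasts against control pre-plasmablasts, 4 to 7 for plasmablasts against activated B cells, 3 to 8 for Blimp1-deficient against control pre-plasmablasts, 1 to 4 for Blimp1-deficient pre-plasmablasts against activated B cells, 4 to 9 for plasmablasts against Blimp1-deficient pre-plasmablasts and 2 to 6 for GSK343 against DMSO. A fit left with 1 library in a group assumes that it varies like the others. Among all genes, fits of only the 2 groups compared called 0.00955% for plasmablasts against control pre-plasmablasts (2.34% in the fit over all groups) and 11.7% for Blimp1-deficient pre-plasmablasts against activated B cells (18%), and without 1 library these shares were 0.22% to 1.44% and 6.9% to 15.4%; for GSK343 against DMSO they were 8.08% to 20.8% (18.6% with all libraries). Median-of-ratios scaling gained 3 calls, a minimum of 5 RPKM lost 1, no mean-variance trend lost 2, fits of only the 2 groups compared lost 3 and gained 4, and a pseudocount of 0.1 changed none. With plasma cell names as deposited, Fos would stand at 0 and Batf3 at 14.6 and 16.4 RPKM. Depth in the GC-normalized libraries is unknown, which leaves the counting error of low members such as Fosb unknown. No paired analysis was possible for GSK343 against DMSO because their titles carry no shared runs.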
